A study of Homo sapiens with 12 samples.

Results

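The clustered histone genes were taken as every gene whose symbol begins HIST1H, HIST2H, HIST3H or HIST4H in 12 RNA sequencing libraries, which gave 73 members among 23284 listed genes. They comprised 6 genes for linker histone H1, 18 for H2A, 20 for H2B, 14 for H3 and 15 for H4, with 56 members in the HIST1 cluster, 13 in HIST2, 3 in HIST3 and 1 at HIST4. The libraries came from PANC-1, a human pancreatic cancer cell line, that carried a retroviral reporter in which the green fluorescent protein ZsGreen was fused to the degron of ornithine decarboxylase, so that cells with low proteasome activity become fluorescent. Degron (−) cells were the infected line, nearly all of it without fluorescence, and degron (++) cells were the most fluorescent part of a population enriched by repeated sorting. Each population was sequenced unirradiated (0 Gy) at 48 h, at 30 h after 4 Gy of gamma rays and at 48 h after 4 Gy, with 2 libraries per group and no 0 Gy group at 30 h. All 6 groups shared the parental line and the reporter, and the labels do not say that the libraries of a group came from separate cultures, so the spread between them may be technical. Whether the hours ran from sorting or from irradiation is not stated in the labels. The degron (−) libraries are titled ZsGreen negative in the labels but described there with a positive degron mark, and the titles were followed here.

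Cells package newly made DNA with histones, and most clustered histone genes are copied into RNA mainly during S phase, when DNA is replicated. H2A, H2B, H3 and H4 form the protein core around which DNA winds, and H1 binds the linker between cores. The mRNAs of these genes usually end just after a short stem-loop, which the stem-loop binding protein SLBP recognises, and carry no poly(A) tail. Some members can also be read past the stem-loop to a poly(A) site, and such longer mRNAs are known from cells that have left the cycle or differentiated.

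The libraries were made with a kit that selects poly(A) RNA, so the end of each transcript bears on what could be measured. In the GENCODE v29 annotation, 33 of the 73 members had a stem-loop sequence in an annotated transcript, and in 24 of these the transcript ran at least 100 bases past it. The stem-loops of 6 members on which the results turn are shown as DNA letters from the GENCODE v29 transcripts, 5′ to 3′, with the 16 bases of the stem-loop in capitals.
HIST1H2AC: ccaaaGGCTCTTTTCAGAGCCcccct
HIST3H2A: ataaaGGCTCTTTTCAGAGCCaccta
HIST1H2BC: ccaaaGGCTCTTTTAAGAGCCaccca
HIST1H2BG: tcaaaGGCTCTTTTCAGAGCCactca
HIST1H3G: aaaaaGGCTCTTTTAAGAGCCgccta
HIST1H4H: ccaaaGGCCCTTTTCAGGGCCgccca
The annotated transcripts ran on for 1128 bases after the stem-loop in HIST1H2AC, 390 bases in HIST3H2A, 116 in HIST1H2BC, 1059 in HIST1H2BG, 1518 in HIST1H3G and 1655 in HIST1H4H. No annotated transcript of HIST1H2BK or HIST1H1C, the 2 most abundant members, reached a stem-loop, so the annotation gave no tail length for them.

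The sequence before the start of transcription differed by class. The letters ATTTGCAT, the octamer bound by OCT1 and known from H2B promoters, were searched on both strands in the 250 bases before the start of 65 members with a RefSeq promoter. They stood in 14 of 18 H2B promoters, 11 of 16 H2A promoters, 1 of 12 H3 promoters and none of the 6 H1 or 13 H4 promoters, beside 1.63% of all 35116 promoters. Many H2A and H2B genes lie head to head with overlapping windows, so the same octamer can be counted for both. The windows of HIST1H2AC (chr6:26123922-26124171) and HIST1H2BC (chr6:26123927-26124176) hold the same octamer. The H2A and H2B counts are thus not independent. The H1 box AAACACA stood in 6 of 6 H1 promoters and in no other member, beside 4.82% of all promoters. CCAAT stood in 55 of the 65 (32.0% of all promoters) and TATAAA in 43 (10.7% of all). The 150 bases before the start of 5 members are shown from RefSeq in GRCh38.p14, 5′ to 3′ on the gene's strand, which was the minus strand for all 5, with every match to these 4 motifs on either strand in capitals. Matches can overlap one another.
HIST1H1C, chr6:26056471-26056620: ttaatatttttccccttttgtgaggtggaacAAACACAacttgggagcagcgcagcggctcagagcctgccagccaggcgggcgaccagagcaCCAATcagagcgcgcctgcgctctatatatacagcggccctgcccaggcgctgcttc
HIST1H2BK, chr6:27146859-27147008: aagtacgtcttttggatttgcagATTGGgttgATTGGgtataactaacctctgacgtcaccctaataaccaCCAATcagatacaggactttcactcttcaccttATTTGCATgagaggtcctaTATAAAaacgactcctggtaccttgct
HIST1H2BC, chr6:26123927-26124076: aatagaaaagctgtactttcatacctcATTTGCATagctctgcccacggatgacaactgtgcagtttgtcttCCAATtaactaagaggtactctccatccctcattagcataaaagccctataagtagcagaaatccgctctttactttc
HIST1H2BG, chr6:26216689-26216838: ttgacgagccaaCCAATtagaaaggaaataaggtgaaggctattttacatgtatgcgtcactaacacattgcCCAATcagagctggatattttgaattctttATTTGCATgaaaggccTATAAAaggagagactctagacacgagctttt
HIST1H4H, chr6:26285535-26285684: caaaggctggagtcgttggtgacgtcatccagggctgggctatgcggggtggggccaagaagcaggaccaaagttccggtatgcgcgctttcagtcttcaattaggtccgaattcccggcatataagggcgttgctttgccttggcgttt
HIST1H1C held the H1 box and a CCAAT box. HIST1H2BK and HIST1H2BG each held an octamer just before a TATAAA match, whereas the octamer of HIST1H2BC lay farther upstream. HIST1H4H held none of the 4 motifs in this window, which says only that these letters are not there.

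Expression was given in FPKM, fragments scaled to exon length and to the number of mapped reads, without counts, so depth is unknown and no counting interval can be given. The values summed to 707273 to 916877 FPKM per library, of which a single microRNA gene, MIR622, took 22.5% to 30.0% and the 73 histone genes 0.0326% to 0.102%. Among markers of the line, VIM, which encodes vimentin, was 2376 to 2711 FPKM in the degron (−) libraries but 13.2 to 19.2 in the degron (++) libraries. The keratins KRT7, KRT8, KRT18 and KRT19 and EPCAM had group means of at least 30.9 in both, but differed too. KRT7 had group means of 1177 to 1382 in degron (++) and 138 to 253 in degron (−), and EPCAM 178 to 203 and 30.9 to 48.8. In the limma tests below, 5 of these 6 genes were called higher in degron (++) and 1, VIM, lower in each condition. None of the 8 markers of endothelium, hepatocytes, islets and acinar cells reached the filter for testing, and of 4 leukocyte markers only CD14 did, at 1.45 to 1.92 FPKM in degron (++) and 0.187 to 1.02 in degron (−), with the defining marker PTPRC at 0.055 or less. RMRP and RPPH1, small RNAs without a poly(A) tail, moved with the groups. RMRP was 23.3 and 20.3 in the degron (++) 0 Gy libraries and 241 and 157 in those at 48 h after 4 Gy, and 14.4 and 12.4 against 61.99 and 24.5 in degron (−). The part of such RNA in the results was not tested.

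Few members carried most of the signal. HIST1H2BK, an H2B gene, held 44.3% of the FPKM summed over all members, HIST1H1C, a linker histone gene, brought this to 59.4%, and the 10 most abundant members held 86.9%. By class the most abundant members were HIST1H1C (96.6% of H1), HIST1H2AC (49.9% of H2A), HIST1H2BK (69.1% of H2B), HIST1H3G (29.2% of H3) and HIST1H4H (52.3% of H4). HIST1H2BK was the highest member in each library, at 96.2 to 383 FPKM, and was followed by the mean level of HIST1H1C, at 30.6 to 156, and of HIST1H2AC, at 17.9 to 45.8. Next came HIST1H2BD at 18.5 to 35.7 FPKM and HIST1H2BJ at 7.82 to 41.5, whose ranges overlapped each other and those of HIST1H1C and HIST1H2AC. Of the 10 most abundant members, 6 had a transcript annotated past the stem-loop. Over all members the median of the mean FPKM was 2.75 for the 24 such members and 0.595 for the other 49. Only 9 of these 49 had an annotated stem-loop, and for the rest the tail is unknown, so these medians do not compare long tails with short ones. The length by which FPKM is divided depends on the annotation, so levels compared between genes depend on it too.

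At the other end, 12 members were listed at 0 in all 12 libraries. They included the near-identical pairs HIST2H2AA3 and HIST2H2AA4, HIST2H3A and HIST2H3C, and HIST2H4A and HIST2H4B. Another 17 members never reached 1 FPKM in 2 libraries, and the remaining 44 were tested: 4 of H1, 11 of H2A, 14 of H2B, 7 of H3 and 8 of H4. Of these 44, 16 reached 1 FPKM in fewer than 2 degron (−) libraries and 15 of these passed through degron (++) alone. The other, HIST1H2BE, reached 1 FPKM in fewer than 2 libraries of either population. To see how far copies could exchange reads, every run of 50 bases of a member's transcripts was looked up in the transcripts of all other GENCODE v29 genes. The median share of such windows found in another gene was 1.29% over the 73 members and 89.1% over the 12 listed at 0, and it exceeded 50% in 16 members, 7 of them listed at 0 and 6 of them tested. For HIST1H2BK the share was 74.1%, and 61.4% of all its windows occurred in H2BFS, a gene not listed in the files. The most abundant value of the family may thus hold reads of a copy. HIST2H2BA, a transcribed pseudogene, shared 73.6% of its windows, mostly with HIST2H2BF. HIST1H3D and HIST1H2AD shared 100% and 98.0% with AL031777.3. HIST1H1C, HIST1H4H, HIST1H2BG and HIST1H3G shared none.

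**Figure D1:**
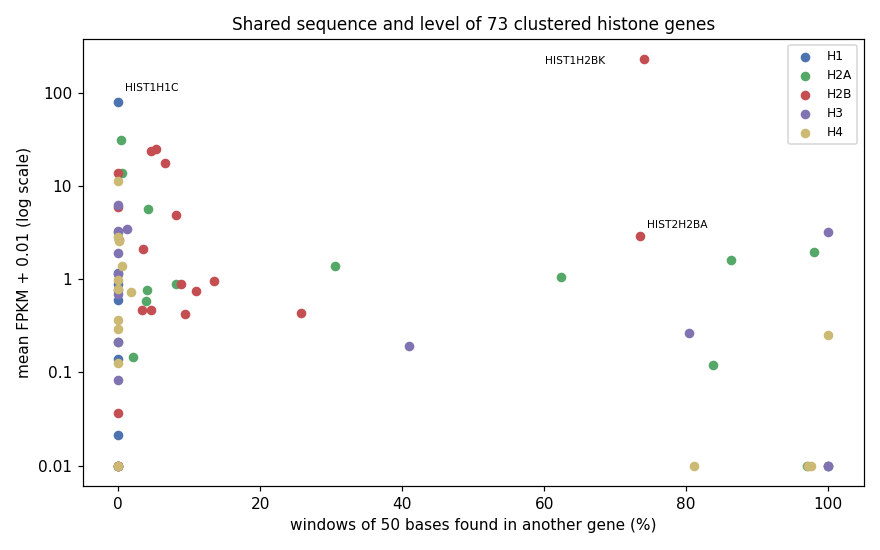
Each point is 1 of the 73 clustered histone genes, placed by the percentage of its 50-base windows that also occur in another GENCODE v29 gene and by its mean FPKM over 12 libraries plus 0.01 on a log scale, coloured by class. HIST1H2BK combined the highest mean with 74.1% shared windows, and the points on the bottom line are the 12 members listed at 0, of which 7 had over 50% of their windows shared.

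The comparison of 4 Gy with 0 Gy at 48 h asked how expression stood after irradiation. The family was chosen on earlier results of this very comparison, so its values are a description and no test of the members is drawn from it. Summed over all members, FPKM was 558 and 576 in the 2 degron (++) 0 Gy libraries and 902 and 885 at 48 h after 4 Gy, a ratio of means of 1.58. In degron (−) cells the sums were 251 and 234 without and 387 and 392 with irradiation, a ratio of 1.60. The irradiated libraries lay above the unirradiated in each of the 5 classes in both populations. In such bulk samples, more cells in S phase and more histone RNA per cell cannot be told apart.

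H4 had the largest ratio. The H4 sum was 18.2 and 16.4 FPKM in unirradiated and 47.2 and 44.2 in irradiated degron (++) libraries (ratio 2.64), and 7.81 and 9.17 against 22.4 and 25.4 in degron (−) (ratio 2.82). The H3 sum had a ratio of 1.98 in degron (++) and 1.99 in degron (−), and the H1 sum 1.65 and 1.49. For H2B the ratios were 1.502 and 1.61, and for H2A they were 1.46 and 1.33. The 4 core classes, whose proteins enter the core particle in equal numbers, thus had ratios of 1.46 to 2.64 in degron (++) and 1.33 to 2.82 in degron (−).

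**Figure D2:**
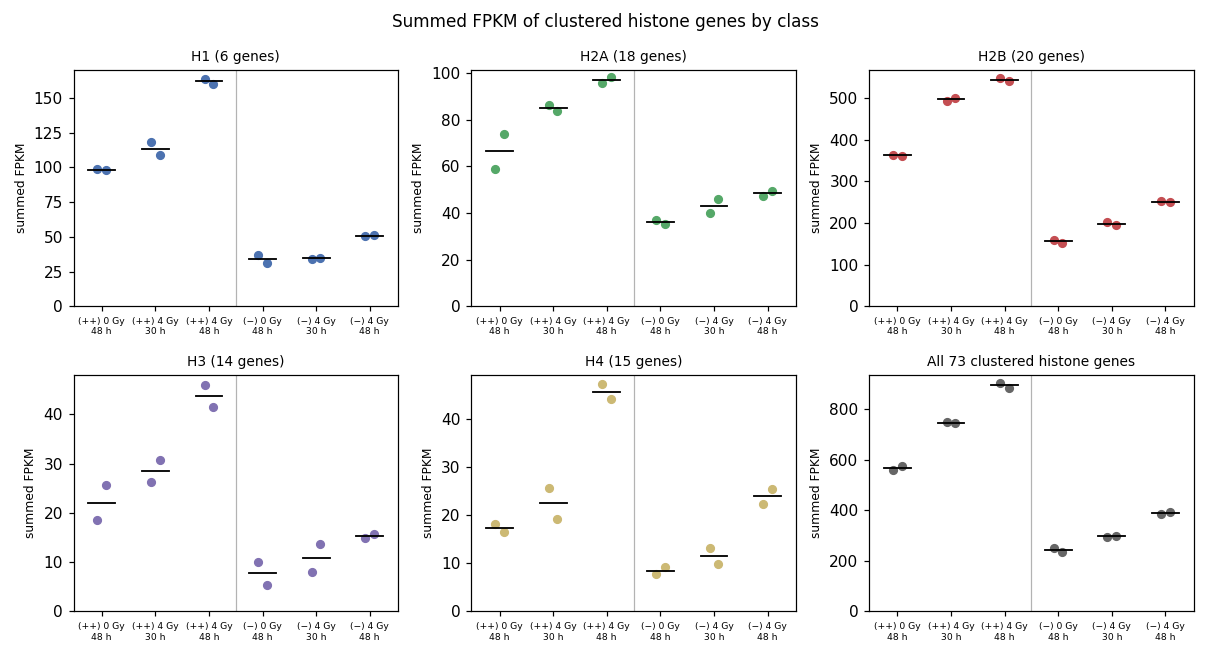
Summed FPKM of the H1, H2A, H2B, H3 and H4 genes and of all 73 members in each of the 12 libraries, with points for libraries and short lines for the means of the 2 libraries of a group. In every panel the libraries at 48 h after 4 Gy lie above the 0 Gy libraries of the same population, and the degron (++) libraries lie above the degron (−) libraries of the same condition.

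In single genes, tested with limma on log2(FPKM + 1), 9 of 44 members were called higher at 4 Gy in degron (++) and none lower, beside 1.42% of 12946 genes called higher and 0.402% lower. In degron (−) 7 of 44 were called higher and none lower, beside 3.85% and 0.873% of all genes. The median log2 fold change of the 44 members was 0.67 in degron (++) and 0.36 in degron (−), where the median over all genes was 0.00 and 0.01, and 43 and 33 of the 44 had a positive value. Since the family was chosen by these values, nothing is read from these counts. They also rest on the fit, since the 9 calls in degron (++) came to 0 without degron (++) 4 Gy replicate 2 at 48 h, 0 without degron (++) 0 Gy replicate 1, and 2 to 5 under 13 other settings. RMRP and RPPH1 rose in the same degron (++) comparison by 3.10 and 3.16 on the log2 scale, and neither passed the threshold in degron (−), at 1.48 and 1.26.

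Both dose comparisons called HIST1H1C, HIST1H2BC, HIST1H2BK, HIST1H4H and HIST2H2BE. HIST1H4H, which encodes the core histone H4, was 5.08 and 9.39 FPKM in the degron (++) 0 Gy libraries and 20.2 and 21.9 after 4 Gy at 48 h. In degron (−) it was 3.96 and 4.11 against 15.4 and 17.5. The irradiated and unirradiated libraries did not overlap, and the unirradiated values were 8.8 to 17.1 times the smallest H4 value above 0 in the same library, so they may rest on few fragments. HIST1H4H supplied 52.3% of H4 FPKM and so set most of the H4 sum.

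HIST1H2BC, an H2B gene, was 14.7 and 13.6 FPKM in unirradiated and 28.1 and 32.4 in irradiated degron (++) libraries at 48 h, and 4.65 and 8.54 against 18.5 and 16.3 in degron (−). HIST1H2BG, also H2B, was 18.2 and 11.4 against 34.4 and 27.3 in degron (++) and 4.17 and 4.33 against 11.99 and 10.99 in degron (−). Neither gene overlapped between doses, and HIST1H2BG passed the threshold only in degron (−), with log2 differences of 1.25 there and 1.03 in degron (++). HIST1H2BK showed a smaller difference at a far higher level, with 264 and 269.8 against 379.9 and 383 FPKM in degron (++) and 104 and 96.2 against 151 and 161 in degron (−). HIST1H1C was 96.4 and 95.2 against 156 and 153 in degron (++) and 35.96 and 30.6 against 48.8 and 49.3 in degron (−). The SEs of these differences were 0.05 for HIST1H2BK and 0.07 for HIST1H1C on the log2 scale. They rest on a spread shared by all 6 groups and do not measure how close the libraries of a single group lay.

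HIST2H2BE, an H2B gene of the HIST2 cluster, had log2 differences of 0.41 in degron (++) and 0.81 in degron (−). The other calls were made in a single population. In degron (++) the H1 genes HIST1H1E and HIST1H1B (0.999 and 0.914), HIST1H3F (1.01) and HIST1H4F (1.38) were called at means of at most 2.32 FPKM. HIST1H4F was listed at 0 in both degron (++) 0 Gy libraries and was 1.66 and 1.55 in the irradiated libraries at 48 h. Without these irradiated libraries HIST1H4F, HIST1H1B and HIST1H3F would not have passed the filter, so these 3 of the 9 calls rest on members admitted through the group in which they were high. In degron (−) HIST1H2BJ was 11.5 and 7.82 against 20.3 and 17.96, a log2 difference of 0.94. In limma no H2A gene of the 11 tested was called in either population, with medians of 0.47 in degron (++) and 0.31 in degron (−). An unadjusted p below 0.05 was reached by 3 in degron (++) and 4 in degron (−), beside 2282 and 2704 of all 12946 genes.

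**Figure D3:**
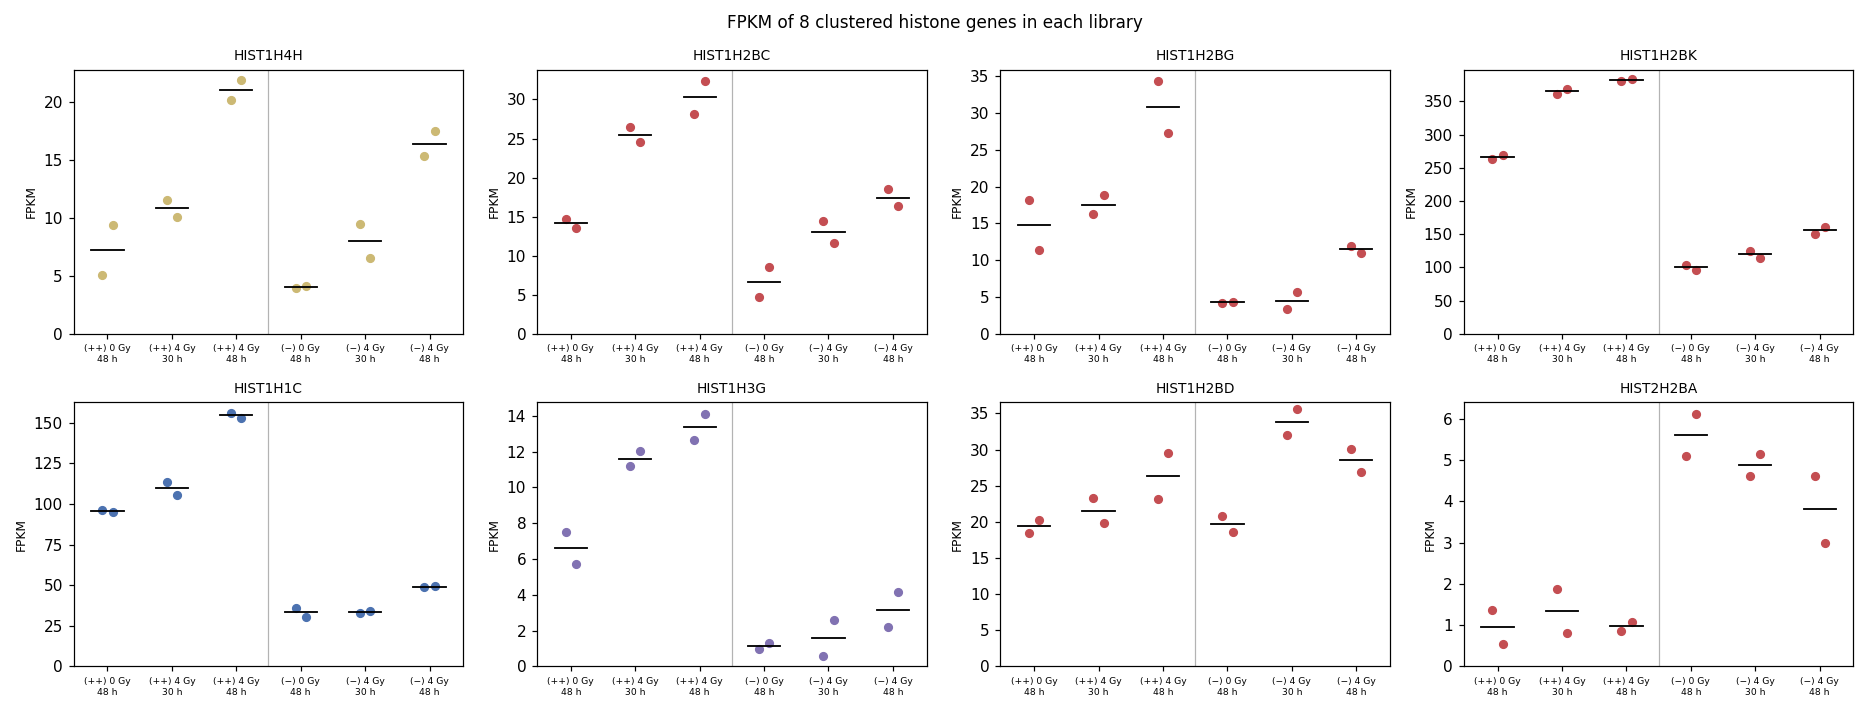
FPKM of 8 clustered histone genes in each of the 12 libraries, with points for libraries and short lines for group means, and a vertical line between the degron (++) groups on the left and the degron (−) groups on the right. HIST1H4H, HIST1H2BC, HIST1H2BG, HIST1H2BK and HIST1H1C were above the 0 Gy libraries at 48 h after 4 Gy in both populations, whereas HIST1H2BD and HIST2H2BA were not called higher in degron (++) than in degron (−).

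The comparison of 48 h with 30 h after 4 Gy asked how expression moved with time. It shares the 48 h libraries with the dose comparison by which the family was chosen, so it is no independent support and is given side by side with it. Of 44 members, 1 was called higher at 48 h in degron (++) and none lower, beside 0.657% and 0.548% of all genes, and 5 were called higher in degron (−) and none lower, beside 6.01% and 1.17%. The median log2 fold change of the members was 0.41 in degron (++) and 0.34 in degron (−), against 0.00 for all genes in both. The single call in degron (++) was HIST1H1C, at 114 and 106 FPKM at 30 h, with a log2 difference of 0.49, and it was lost without degron (++) 4 Gy replicate 2 at 30 h or without either library at 48 h. In degron (−) the calls were HIST1H2BG (1.22), HIST1H4H (0.97), HIST2H2BE (0.72), HIST1H1C (0.53) and HIST1H2BK (0.38). RMRP and RPPH1 were also higher at 48 h in degron (++), by 2.47 and 2.38 on the log2 scale, of which the first passed the threshold, and their values of 1.53 and 0.73 in degron (−) did not pass it.

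The 30 h libraries held different positions between the 0 Gy and 48 h values for different genes. HIST1H2BK in degron (++) was 362 and 368 FPKM at 30 h, close to its 48 h values and above its 0 Gy values. HIST1H2BC was 26.4 and 24.5 at 30 h in degron (++) and 14.4 and 11.6 in degron (−), likewise between the other groups but nearer to the irradiated 48 h libraries. HIST1H1C in degron (−), at 32.99 and 34.3, lay within the range of its 0 Gy values, and HIST1H2BG there, at 3.33 and 5.62, straddled them. HIST1H4H was 11.6 and 10.1 at 30 h in degron (++) and 9.50 and 6.51 in degron (−), above the 0 Gy libraries of the same population and below those at 48 h. The H4 sum at 48 h was 2.03 times that at 30 h in degron (++) and 2.07 times in degron (−), while the H2B sum had ratios of 1.10 and 1.27, and the libraries behind these ratios did not overlap. Without unirradiated cells at 30 h time and time after irradiation cannot be told apart.

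Whether dose or time acted differently in the populations was tested as an interaction. No member passed the threshold in the population by dose interaction, beside 0.0772% of all genes, or in the population by time interaction, beside 3.23%. In limma 6 of 44 members had an unadjusted p below 0.05 in each, beside 1758 of 12946 genes for dose and 2316 for time. For HIST1H4H the dose effect in degron (++) minus that in degron (−) was -0.32 with an SE of 0.33 on the log2 scale, and for HIST1H1C it was 0.14 with an SE of 0.09. For HIST1H2BK the time effect differed by -0.31 with an SE of 0.07 (limma adjusted p = 0.0613). A p that misses the threshold does not show that the effects were alike.

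The comparison of the populations asked which genes differed between degron (++) and degron (−) cells, a different contrast from the one that chose the family, though at 48 h in the same libraries. Summed over the members, FPKM was 2.34 times that of degron (−) at 0 Gy, 2.505 times at 30 h after 4 Gy and 2.29 times at 48 h after 4 Gy. By class, the ratio at 0 Gy was 2.89 for H1, 1.84 for H2A, 2.32 for H2B, 2.86 for H3 and 2.04 for H4, and in each class and condition both degron (++) libraries exceeded both degron (−) libraries.

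At 0 Gy, 21 of 44 members (47.7%) were called higher in degron (++) and 1 (2.27%) lower, where 37.6% of all genes were called higher and 40.2% lower. At 30 h after 4 Gy 20 members (45.5%) were called higher and 2 lower, beside 38.3% and 40.8%, and at 48 h after 4 Gy 25 (56.8%) higher and 1 lower, beside 37.1% and 39.6%. More than 3 in 4 genes thus differed between the populations, in near-equal numbers in each direction. The median log2 fold change of the members was 0.57, 0.69 and 0.95 in the 3 conditions, against -0.02, -0.02 and -0.01 over all genes. Because 15 of the 44 passed the filter through degron (++) alone, these counts and medians lean upwards. Of the 12 tested members with a mean of at least 5 FPKM, none of which was among the 15, 11, 10 and 10 were called higher and 0, 1 and 0 lower. This mean runs over all 12 libraries, so high degron (++) values helped to admit members. HIST1H2BH and HIST1H3G were at most 3.60 and 4.14 FPKM in degron (−). The share called among all genes at this level was not computed, so nothing is read from these counts. Of the 44 tested, 16 members (36.4%) were called higher in all 3 conditions, beside 32.9% of all genes, and 1 (2.27%) lower, beside 35.6%. In 14 of the 44 (31.8%) each of the 6 degron (++) libraries exceeded each of the 6 degron (−) libraries, beside 34.1% of genes tested (37.2% for the opposite order). Both upward shares lie near those of all genes. Among the 16 and among the 14 stand HIST1H1D, HIST1H3F, HIST1H4I, HIST3H2BB and HIST4H4, which passed the filter through degron (++) alone. Passing in that way leans a member upwards, though HIST1H2AH and HIST1H2BL passed so and were called in no condition. For these only levels are given. Of the 29 members that did not pass in that way, 14, 13 and 13 were called higher and 1, 2 and 1 lower in the 3 conditions.

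Among H1 genes, HIST1H1C ranged from 95.2 to 156 FPKM in degron (++) and from 30.6 to 49.3 in degron (−) libraries, with log2 fold changes of 1.501 at 0 Gy, 1.68 at 30 h and 1.64 at 48 h after 4 Gy (SE 0.07, limma adjusted p = 6.47e-08, 2.83e-08 and 4.5e-08). The other 3 tested H1 genes all passed the filter through degron (++) alone. HIST1H1D was 0.887 to 3.20 against 0.139 to 0.538 FPKM, and HIST1H1B and HIST1H1E were at no more than 2.91 FPKM in any library.

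Among H2B genes, HIST1H2BK was 264 to 383 FPKM over the 6 degron (++) libraries and 96.2 to 161 over the 6 degron (−) libraries, with no overlap, and its log2 fold change was 1.41 at 0 Gy (SE 0.05, limma adjusted p = 2.2e-08), 1.60 at 30 h and 1.29 at 48 h after 4 Gy. HIST1H2BH was 6.06 to 14.4 against 1.06 to 3.60, and its log2 fold changes of 1.70, 2.16 and 2.04 were among the 3 largest of the family in each condition (SE 0.40, limma adjusted p = 0.00362, 0.000819 and 0.00127). HIST1H2BG, HIST1H2BJ, HIST1H2BC and HIST2H2BE were called higher in all 3 conditions too, by 0.76 to 1.79 on the log2 scale. HIST3H2BB was 0.692 to 2.72 FPKM in degron (++) and 0 to 0.628 in degron (−). HIST1H2BD departed from the called genes. It was 23.3 and 19.8 FPKM in degron (++) and 32.1 and 35.7 in degron (−) at 30 h after 4 Gy, a log2 fold change of -0.63 (SE 0.12, limma adjusted p = 0.00124), while at 0 Gy the values were 18.5 and 20.3 against 20.9 and 18.6 and overlapped.

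HIST2H2BA was the only member lower in all 3 conditions. It was 0.535 to 1.88 FPKM in the degron (++) libraries and 2.99 to 6.12 in the degron (−) libraries, with log2 fold changes of -1.79, -1.36 and -1.27 (SE 0.27, limma adjusted p = 0.000217, 0.0012 and 0.00196). It is annotated as a pseudogene of the HIST2 cluster and shares 54.6% of its windows with HIST2H2BF, so its reads cannot be assigned with certainty.

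Among H3 genes, HIST1H3G was 7.49 and 5.71 FPKM in degron (++) and 0.953 and 1.32 in degron (−) without irradiation, and over all conditions 5.71 to 14.1 against 0.610 to 4.14. Its log2 fold changes of 1.83, 2.39 and 1.82 (SE 0.34, limma adjusted p = 0.000967, 0.00016 and 0.00101) were among the 3 largest of the family in each condition. HIST1H3F, which passed the filter through degron (++) alone, was 0 to 0.323 FPKM in degron (−) and 0.327 to 2.89 in degron (++). The other 5 tested H3 genes were each called in at most 2 conditions.

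Among H4 genes, HIST1H4H, the most abundant, was called at 0 Gy only, with 0.66 there (SE 0.23, limma adjusted p = 0.0276), 0.41 at 30 h and 0.34 at 48 h after 4 Gy. HIST4H4, HIST1H4I and HIST1H4B passed the filter through degron (++) alone, so their levels are a description. HIST4H4, the single gene of the HIST4 locus, was 2.01 to 8.68 FPKM in degron (++) and 0.387 to 1.502 in degron (−). HIST1H4I was 1.52 to 3.12 against 0 to 1.01 FPKM. HIST1H4B at 48 h after 4 Gy was 3.55 and 2.22 FPKM in degron (++) and listed at 0 in both degron (−) libraries, so no fold is given.

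Among H2A genes, HIST1H2AC was 28.2 to 45.8 FPKM in degron (++) and 17.9 to 26.5 in degron (−), called at 0.69, 0.73 and 0.75 on the log2 scale (SE 0.13, limma adjusted p = 0.00109, 0.000762 and 0.000686). HIST3H2A, which held 93.5% of the FPKM of the HIST3 cluster, differed more, with 16.4 to 27.9 against 4.66 to 7.71 FPKM and log2 fold changes of 1.46, 1.88 and 1.60 (SE 0.15, limma adjusted p = 1.39e-05, 2.15e-06 and 8.05e-06). HIST1H2AG was higher in all 3 conditions by 0.40 to 0.65. The other 8 tested H2A genes were called in at most 2 conditions.

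**Figure D4:**
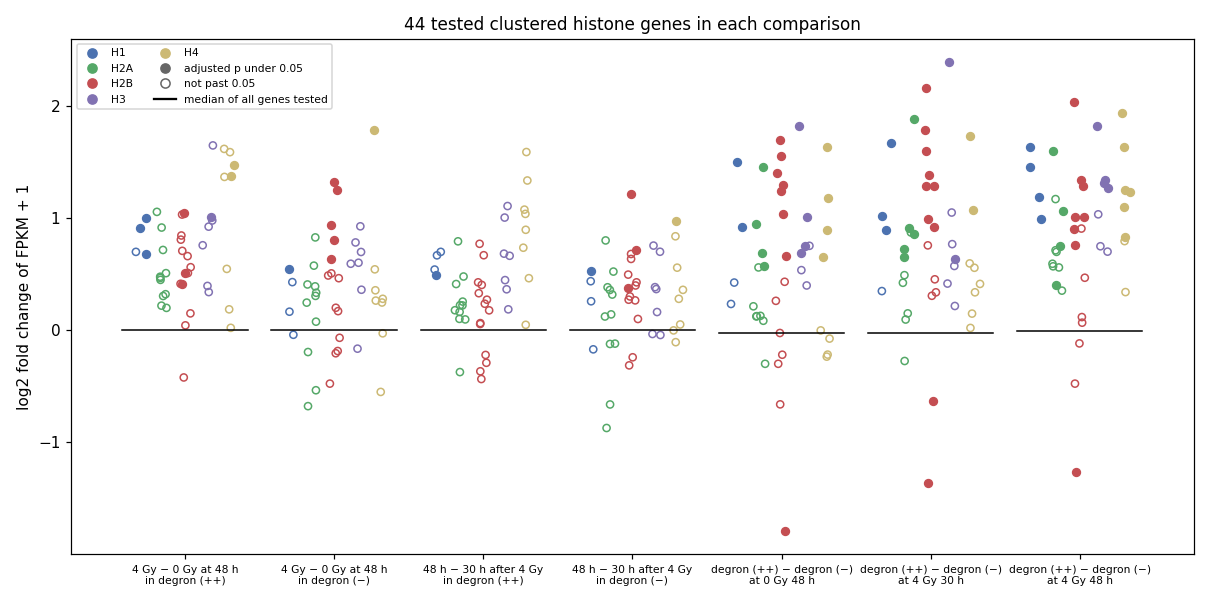
Log2 fold changes of FPKM + 1 for the 44 tested members in 7 comparisons, coloured by class, filled where the limma adjusted p was under 0.05, with a black line at the median of all 12946 genes. In the 4 dose and time comparisons all filled points are positive, and in the 3 population comparisons all filled points but HIST2H2BA in each and HIST1H2BD at 4 Gy 30 h are positive.

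Scaling touches the population values. Rescaling each library to a sum of 1000000 moved the median of all genes to -0.22, -0.27 and -0.25 in the 3 conditions. The members then had medians of 0.48, 0.60 and 0.77 with 18, 18 and 20 called higher and 1, 2 and 2 lower. Quantile normalization moved the values the other way, with medians of 0.04, 0.04 and 0.05 over all genes. Under it the members had medians of 0.74, 0.91 and 1.18, with 23, 26 and 32 called higher and 1, 2 and 1 lower. RMRP and RPPH1 were higher in degron (++) at 30 h by 1.34 and 1.33 on the log2 scale and at 48 h after 4 Gy by 2.28 and 2.97. At 0 Gy their log2 fold changes were 0.67 and 1.07 and did not pass the threshold. The part of such RNA in the population values was not tested.

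Many H2A and H2B genes lie head to head and share the stretch between their starts, 12 such pairs in GENCODE v29 with 123 to 330 bases between them. Their levels were unequal. HIST1H2BK had a mean of 231 FPKM and its partner HIST1H2AH, 330 bases away, 0.578. HIST1H2BG had 13.9 and HIST1H2AE 3.21, and HIST1H2BJ had 24.1 and HIST1H2AG 5.65. HIST3H2A had 13.9 and HIST3H2BB 0.892, whereas HIST1H2BC and HIST1H2AC, 218 bases apart, were nearer at 17.8 and 31.3. Over the 12 pairs the H2B gene had the higher mean in 6, the H2A gene in 5, and 1 pair was listed at 0 on both sides. The pair of HIST1H2BC and HIST1H2AC also differed in the dose comparison, at log2 values of 1.04 and 0.47 in degron (++) and 1.32 and 0.41 in degron (−).

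The annotated tail was set beside the same comparisons. Of the 18 tested members annotated past the stem-loop, 3 were called higher with dose in degron (++) and 4 in degron (−), with medians of 0.53 and 0.48. Of the other 26 tested members, 6 and 3 were called, with medians of 0.69 and 0.26. Among those 6, HIST1H1B, HIST1H3F and HIST1H4F passed the filter only with the degron (++) 4 Gy 48 h libraries, where they were high. Over all genes 1.42% were called higher with dose in degron (++) and 3.85% in degron (−). Only 5 of the other 26 had an annotated stem-loop, and for the rest the tail is unknown. The sets thus do not compare long tails with short ones. A difference by tail was not tested. Between the populations, where 3 of the 18 and 12 of the 26 had passed the filter through degron (++) alone, 13 and 8 were called higher at 0 Gy, with medians of 0.88 and 0.23, and at 48 h after 4 Gy 11 and 14, with medians of 0.905 and 1.004. Over all genes 37.6% were called higher in degron (++) at 0 Gy and 37.1% at 48 h after 4 Gy. The medians of both sets were positive in each of these comparisons.

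Genes that act on histones were listed for comparison. Of 13 factors for the transcription and 3′ processing of histone mRNA, such as NPAT, SLBP and the U7 protein LSM11, limma called none with dose or time in either population, and 1 to 4 of them had an unadjusted p below 0.05 in each comparison. None of 15 histone chaperones was called either, and 1 to 3 had an unadjusted p below 0.05. Of 10 tested genes listed as replication-independent histone genes, H1F0 and H1FX were lower after 4 Gy in degron (−), at -0.18 and -0.24 on the log2 scale. No other dose or time call was made in this list. Of 20 S phase genes, RRM2, a ribonucleotide reductase subunit, was lower at 48 h than at 30 h in degron (−), at -0.33. No S phase gene was called with dose, where 5 in degron (++) and 6 in degron (−) had an unadjusted p below 0.05. Over all 12946 genes, 2282 in degron (++) and 2704 in degron (−) had such a p with dose, and 2050 and 2890 with time. In each direction 0.402% to 6.01% of all genes were called over these comparisons. Little is thus read from an absence of calls in such short lists.

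Between the populations the same lists were mixed. At 0 Gy 6 processing factors were higher and 3 lower in degron (++), 6 chaperones higher and 5 lower, 4 replication-independent histone genes higher and 5 lower, and 10 S phase genes higher and 6 lower, with list medians of 0.12, 0.01, -0.07 and 0.11. ERI1, an exonuclease that acts on the histone stem-loop, was higher in degron (++) by 1.17 (limma adjusted p = 1.33e-06), and LSM11 by 1.03 (limma adjusted p = 9.61e-06). SLBP was 46.9 and 50.1 FPKM in degron (++) and 61.7 and 59.8 in degron (−), a log2 fold change of -0.32 (limma adjusted p = 0.000408), and did not pass the threshold at 48 h after 4 Gy. CDC6, which loads the replicative helicase, was higher at 0.93 while RRM2 was lower at -1.24.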

How the data were processed

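Total RNA from sorted PANC-1 cells was sequenced as stranded poly(A) mRNA libraries. The authors deposited 1 table per library with a gene symbol and an FPKM value, and the submitters' processing notes name TopHat2 2.1.1, Bowtie2 2.2.8, SAMtools 0.1.18, Cuffdiff 2.2.1 and hg19. The gene annotation, and how reads matching several copies were assigned, are not given in the sources used here. No table held counts, so depth is unknown and a member at 0 is only listed at 0. The members and comparison lists were chosen with earlier results of these data known.

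Genes with at least 1 FPKM in at least 2 libraries (12946 of 23284) were fitted on log2(FPKM + 1), 6 group means over 12 libraries, with limma 3.58.1 (trend) in R 4.3.3, and p-values were adjusted by Benjamini-Hochberg over all 12946 genes at 0.05. Fold changes on this scale understate those of low genes. On simulated data of the dose comparison in degron (++), 95.5% of 200 genes changed by 1.5 on the log2 scale were recovered. There were 10 false calls among the genes left unchanged. That size is above the member medians of 0.67 in degron (++) and 0.36 in degron (−), so recovery of smaller changes was not tested. Named members were the most abundant of each class, the 3 members that rose and the 3 that fell most past the threshold in each comparison, members known from earlier results, their head-to-head neighbours and every count of 5 or fewer. Transcripts and gaps between genes came from GENCODE v29, and upstream sequence came from RefSeq, GRCh38.p14. No coordinates were converted between builds. Alternative pseudocounts, filters, scalings, fits and left-out libraries were tried.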

Additional observations from a re-analysis of the deposited data

How the results depend on the processing

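Alternatives were followed only for the 55 results of named members that passed the threshold in the main fit. Of their 1097 values over all alternative settings, 994 still passed, 103 no longer passed and 0 changed sign. Results picked for passing were unlikely to reverse in refits of nearly the same libraries. Results of named members that did not pass in the main fit were not followed. Counts of members called moved by over 1.5 times as follows, and the cause was not tested. With dose in degron (++) (9 members) the count was 4 with a pseudocount of 0.1, 2 without a filter, 5 with a filter of 5 FPKM, 3 after rescaling to 1000000, 5 without the variance trend, 5 with the replicate number as a block and 2 with only the libraries compared, where fewer libraries entered the fit. With dose in degron (−) (7) it was 4 without a filter and 1 with only the libraries compared. With time in degron (++) (1) it was 0 without a filter and 0 with only the libraries compared, and in degron (−) (5) it was 0 with only the libraries compared. With a filter of 5 FPKM, under which fewer members were tested, the populations differed in 14 members at 30 h after 4 Gy (22 otherwise) and 13 at 48 h after 4 Gy (26 otherwise). The time interaction called 1 member with a pseudocount of 0.1.

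Leaving out each library in turn gave 0 to 6 members with dose in degron (++), 3 to 8 in degron (−), 0 to 2 with time in degron (++), 3 to 5 in degron (−), 17 to 22 between the populations at 0 Gy, 19 to 24 at 30 h and 21 to 29 at 48 h after 4 Gy, 0 throughout for the dose interaction and 0 to 1 for the time interaction. With dose in degron (++) the count was 0 without degron (++) 4 Gy 48 h replicate 2 or degron (++) 0 Gy replicate 1, 2 without degron (++) 4 Gy 48 h replicate 1 and 3 without degron (++) 0 Gy replicate 2. It was 4 without either degron (−) library at 30 h and 5 without either degron (−) 0 Gy library. In degron (−) it was 4 and 3 without replicate 1 and 2 of the 4 Gy 48 h group. With time in degron (−) it was 3 without degron (−) 4 Gy 30 h replicate 1 or degron (−) 4 Gy 48 h replicate 2. In degron (++) the time count was 0 without degron (++) 4 Gy 30 h replicate 2 or either degron (++) library at 48 h after 4 Gy, and 2 without either degron (−) library at 48 h after 4 Gy. The time interaction called 1 without degron (−) 4 Gy 48 h replicate 2. A group left with 1 library was assumed to vary like the others.

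Same-numbered libraries were not paired by the labels, and over 15 pairs of groups the correlation of their deviations was -0.0381 to 0.122, above 0.1 in 2. The replicate block otherwise moved no count of calls by over 1.5 times. Depth is unknown, which limits all members near 1 FPKM.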
